A study of Mus musculus with 8 samples.

Results

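A set of 10 genes of fibroblast growth factor (FGF) signalling were examined in whole lungs of fetal mice with and without tracheal occlusion. They are the ligands Fgf7, Fgf9, Fgf10 and Fgf18, the receptor Fgfr2, the ETS transcription factors Etv4 and Etv5, and the feedback inhibitors Spry2, Spry4 and Dusp6. These 10 genes were chosen by symbol for their part in lung branching, and all 10 were found by symbol among the 55385 gene IDs of the count tables. Bulk lung tissue of C57BL/6 fetuses was collected at E18.5, with 4 control and 4 tracheal occlusion (TO) lungs, 1 mRNA sequencing library per lung. TO fetuses had been operated on at E16.5 from outside the uterus: a tie around the neck closed the airway, and the carotid artery and jugular vein of 1 side with it. Their dams received progesterone. Whether control fetuses had a sham operation or came from operated dams is not given in the sources used here. The question was whether 2 days of a closed trachea, which retains lung liquid and distends the lung, went with other levels of these genes.

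Branching of the lung is driven by signals exchanged between the epithelial tube and the mesenchyme around it. Fgf10, made by distal mesenchyme, binds the IIIb form of Fgfr2 on the epithelium and draws the bud outward, and without Fgf10 or Fgfr2-IIIb no lung forms beyond the trachea. The receptor signals through Ras and ERK, which induce Etv4 and Etv5, and also induce the Sprouty proteins and the phosphatase Dusp6, which dampen the same cascade. Late in gestation, when these lungs were taken, branching gives way to formation of saccules, and the pathway is also used by maturing alveolar type II cells.

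Values are read pairs per gene in CPM (read pairs of a gene relative to the library's size), scaled by TMM factors. TO 1 was shallow, with 270078 read pairs on genes, against 22822261 to 35002061 elsewhere, so a value in TO 1 rests on few reads, and 1 read there was 3.45 CPM. The comparison of groups used controls 1, 2 and 4 and TO 2, 3 and 4, the 6 lungs that the study's expression figure shows by specimen name, and the values of control 3 and TO 1 are given beside them. Control and TO lungs with the same replicate number deviated together from their group means, so values were also compared within the same-numbered pairs 2, 3 and 4. The markers of lung cell types were present in each library. The summed level of 7 alveolar type II markers was 6563 to 20061 CPM, that of 6 lung fibroblast markers 8446 to 12145 CPM and that of 5 endothelial markers 1042 to 1895 CPM. RNA of other tissue was also present: 6 cardiac muscle markers summed to 414 to 5220 CPM, and 5 stratified epithelium markers to 284 CPM in control 1, 314 CPM in TO 1 and 275 CPM in TO 4 against at most 11.3 CPM elsewhere. Liver markers, 5 in all, summed to 768 CPM in control 1 and 337 CPM in TO 4, and to at most 75.9 CPM elsewhere. In whole lung, fewer cells of a type and less RNA per cell cannot be told apart.

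Per kilobase of exon, the ERK targets Etv5, Dusp6 and Spry2 had higher mean levels than any of the 4 ligands, and Fgf9 and Etv4 were the least abundant of the 10 genes. Over the 7 libraries of full depth, Etv5 was at 74.8 ± 15.03 CPM per kilobase (SD, n = 7), Fgfr2 at 40.8 ± 2.74, Dusp6 at 34.2 ± 3.85 and Spry2 at 22.7 ± 2.91. The lowest value of Etv5, 51.8 CPM per kilobase, was above the highest of Fgfr2, 44.7, while Fgfr2 and Dusp6 overlapped and Dusp6 lay above Spry2 throughout. Fgf10 followed at 14.8 ± 2.73 CPM per kilobase, Fgf18 at 12.1 ± 2.69, Spry4 at 11.2 ± 1.17 and Fgf7 at 8.21 ± 2.27, and neighbours in this order overlapped. Etv4 at 1.58 ± 0.634 CPM per kilobase and Fgf9 at 1.28 ± 0.309 overlapped each other and lay below every other gene in every one of these libraries. The place of Fgfr2 rests on the exon length used. With exons of the basic transcript set (5115 bases in place of 10328), Fgfr2 was at 82.4 CPM per kilobase and passed Etv5, which was at 76.2.

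**Figure D1:**
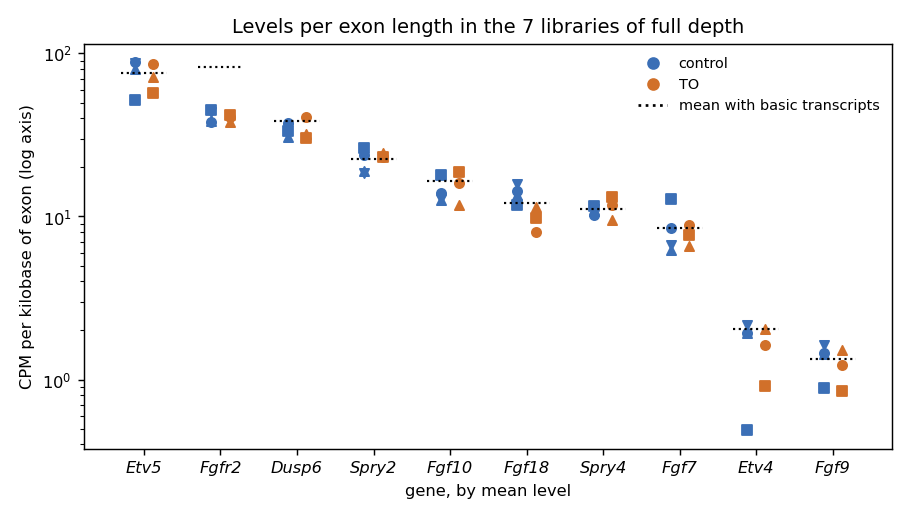
CPM per kilobase of exon (log axis) of the 10 genes in the 7 libraries of full depth, control in blue and TO in orange, with a marker shape for each replicate number. The dotted line is the mean with exons of the basic transcript set; Etv5, at 51.8 to 88.1 CPM per kilobase, lies highest with all exons and Etv4 and Fgf9 lowest.

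No member of the pathway was called between TO and control lungs, and Fgf18 was the single member with an unadjusted p under 0.05. By edgeR's quasi-likelihood test with Benjamini-Hochberg adjustment, 0 of the 10 genes and 0 of 21859 genes tested (0%) passed an adjusted p of 0.1, the threshold of the study. That count over all genes rested on the lungs and filter used, with 144 genes without TO 4 (0.692%), 52 without control 4 (0.247%) and 40 when every gene with a read was tested (0.127%), none of them a member. At an unadjusted p under 0.05 there were 1123 genes (5.14%), and 1 of the 10 was among them. DESeq2 called 44 genes (0.201%), none of them a member, and limma-voom called 0. The median log2 fold change was 0.002 over the 10 members and -0.0045 over all genes tested, and 5 of the 10 members had a value above 0, as did 49.3% of all genes tested. Groups did not overlap in 10.9% of all genes tested and in 1 of the 10, Fgf18.

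**Figure D2:**
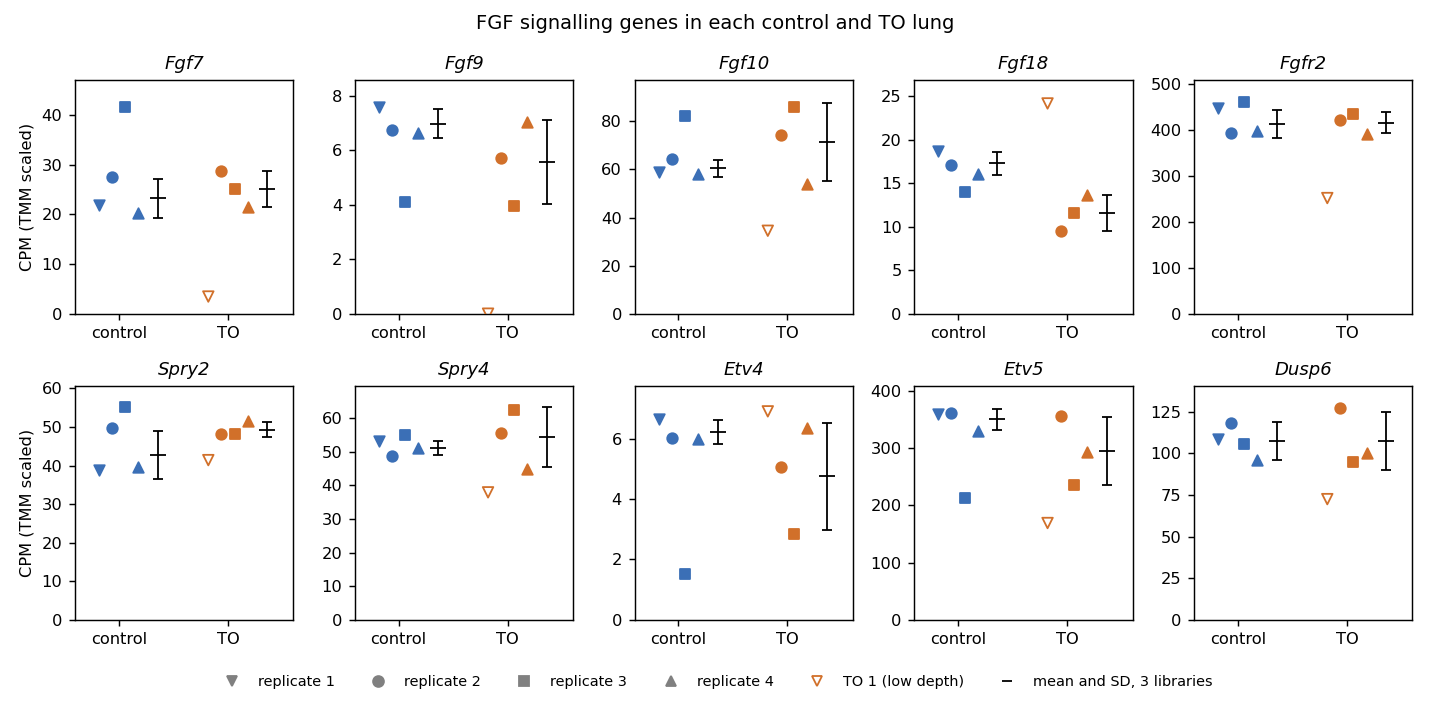
CPM of each of the 10 genes in every control (blue) and TO (orange) lung, with a marker shape for each replicate number and an open triangle for TO 1, the library of low depth. Bars are the mean and SD of controls 1, 2 and 4 and of TO 2, 3 and 4; of the 10 panels, only that of Fgf18 shows these 2 groups apart.

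Fgf18 is made by the lung mesenchyme and takes part in the growth and remodelling of the distal lung late in gestation (ENSMUSG00000057967.12, GRCm38 chr11:33117430-33147400, minus strand). In controls 1 to 4 its level was 18.7, 17.1, 13.9 and 16.1 CPM. In TO 2, 3 and 4 it was 9.50, 11.6 and 13.6 CPM, while TO 1, on 7 reads, stood at 24.2 CPM (exact Poisson 95% interval 9.71 to 49.8, for counting error alone). All TO lungs of full depth thus lay below all 4 controls, by a narrow margin between TO 4 and control 3, and TO 1 lay above them. In the 7 libraries of full depth, 3.97% of all genes tested had their groups apart, in either direction. Its mean was 17.3 ± 1.33 CPM in control and 11.6 ± 2.07 CPM in TO (SD, n = 3 each). By edgeR the log2 fold change was -0.58 (SE 0.19, 95% interval -1.01 to -0.15), with an unadjusted p of 0.0142 and an adjusted p of 0.907. Within same-numbered pairs the log2 ratio of TO to control was -0.85 in pair 2, -0.26 in pair 3 and -0.24 in pair 4, and TO was the lower lung in all 3 pairs for 1 of the 10 genes and for 11.2% of all genes tested, and the higher lung in all 3 for 0 of the 10 and 12.1% of all. With the replicate number as a block in these 3 pairs, the log2 fold change was -0.45 (SE 0.21) with an unadjusted edgeR p of 0.0627 and an adjusted p of 0.99995, so that no member then had an unadjusted p under 0.05 against 3.08% of all genes, and 3 genes (0.0136%), none a member, were called. The same block called 219 genes (1%) in the 6 lungs, of which only pairs 2 and 4 are complete, and 3 genes (0.0133%) in all 8, none a member, with unadjusted p under 0.05 for 5.92% and 4.4% of all genes. With all 8 libraries and no block, the log2 fold change was -0.39 and the unadjusted edgeR p was 0.133, no member was under 0.05 (2.35% of all genes) and no member's groups were apart (2.01% of all genes). Without control 1 the p was 0.0518 and without TO 2 it was 0.0541, both unadjusted and by edgeR.

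Of all the marker lists summed, 3 separated the same 6 lungs as Fgf18 did, and the sums of the others overlapped between groups. Among single genes, 10.9% of all tested had these groups apart. The summed level of the epithelial markers Epcam, Cdh1, Krt8 and Krt18 was 1138 to 1313 CPM in control and 972 to 1114 CPM in TO, with 0 of 4 higher in TO, while control 3 stood at 1356 and TO 1 at 828 CPM. The immune markers, of which Ly6g had no read, summed to 61.8 to 84.2 CPM in control and 90.9 to 186 CPM in TO, with 5 of 6 higher in TO, and control 3 stood at 83.2 and TO 1 at 179 CPM. The 6 skeletal muscle markers summed to 14.9 to 126 CPM in control and 141 to 287 CPM in TO, with 6 of 6 higher in TO, but control 3 stood at 170 CPM, among the TO lungs, and TO 1 at 2557 CPM. Lung fibroblast markers, of the tissue layer that makes Fgf18, overlapped at 8446 to 8852 CPM and 8461 to 8947 CPM. The part of these lists in the Fgf18 values was not tested.

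Fgf10, the mesenchymal signal for bud outgrowth (ENSMUSG00000021732.14, chr13:118669791-118792115, plus strand), was the most abundant of the 4 ligands per length. Its level was 59.0, 64.4, 82.2 and 58.0 CPM in controls 1 to 4 and 34.5, 74.3, 85.9 and 54.1 CPM in TO 1 to 4. The groups overlapped, TO 3 and control 3 were the 2 highest lungs, and the TO 1 value came from 10 reads. For Fgf10 the log2 fold change was 0.24 (SE 0.16, 95% interval -0.13 to 0.60; edgeR adjusted p = 0.909), and a rise of more than 1.51-fold or a fall below 0.916 of control lies outside that interval. An antisense gene, Gm16263, shares 123 exon bases with Fgf10, and the counts by strand held 10.7% more Fgf10 pairs in all than the count of both strands together. The log2 fold change was 0.06 with the block in pairs 2, 3 and 4, 0.0074 with all 8 libraries, 0.10 without TO 3 and 0.41 without TO 4, the last with an unadjusted edgeR p of 0.0102 and an adjusted p of 0.265.

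Fgf7, another mesenchymal ligand of Fgfr2-IIIb that stimulates growth of the epithelium (ENSMUSG00000027208.14, chr2:126034658-126091185, plus strand), was highest in control 3. It was at 21.8, 27.6, 41.7 and 20.2 CPM in controls 1 to 4 and at 28.8, 25.0 and 21.5 CPM in TO 2, 3 and 4, with 1 read in TO 1. Control 3 stood above the other 6 deep libraries, which overlapped between groups. For Fgf7 it was, as a log2 fold change, 0.11 (SE 0.17, 95% interval -0.28 to 0.50; edgeR adjusted p = 0.965) without control 3 and -0.15 with it.

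Fgf9, which the epithelium and the mesothelium give to the mesenchyme (ENSMUSG00000021974.15, chr14:58070547-58112720, plus strand), was the ligand of lowest level per length. Its values were 7.58, 6.76, 4.10 and 6.62 CPM in controls 1 to 4 and 5.73, 3.97 and 7.04 CPM in TO 2, 3 and 4. TO 1 had 0 reads, which allows up to 10.4 CPM at a floor of 3 counts, above every other lung. Here the lungs numbered 3 were the 2 lowest, in both groups, and the log2 fold change was -0.32 (SE 0.27, 95% interval -0.94 to 0.30; edgeR adjusted p = 0.922). It was -0.07 with the block in pairs 2, 3 and 4, -0.11 without TO 3 and -0.52 without TO 4.

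Fgfr2 (ENSMUSG00000030849.18, chr7:130162451-133123350, minus strand), the receptor of Fgf7 and Fgf10 in the epithelium and, in its IIIc form, of Fgf9 and Fgf18 in the mesenchyme, was the steadiest member. It was at 449, 394, 461 and 397 CPM in controls 1 to 4 and at 422, 435 and 391 CPM in TO 2, 3 and 4, a 1.18-fold range over the 7 deep libraries. TO 1 was at 252 CPM on 73 reads (exact Poisson 95% interval 197 to 317), below all of these. The log2 fold change was 0.01 (SE 0.10, 95% interval -0.23 to 0.24; edgeR adjusted p = 0.996), the narrowest interval of the 10 genes. Counts per gene do not separate the IIIb from the IIIc form, and 314 exon bases of Fgfr2 are shared with Ctbp2 on the same strand.

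**Figure D3:**
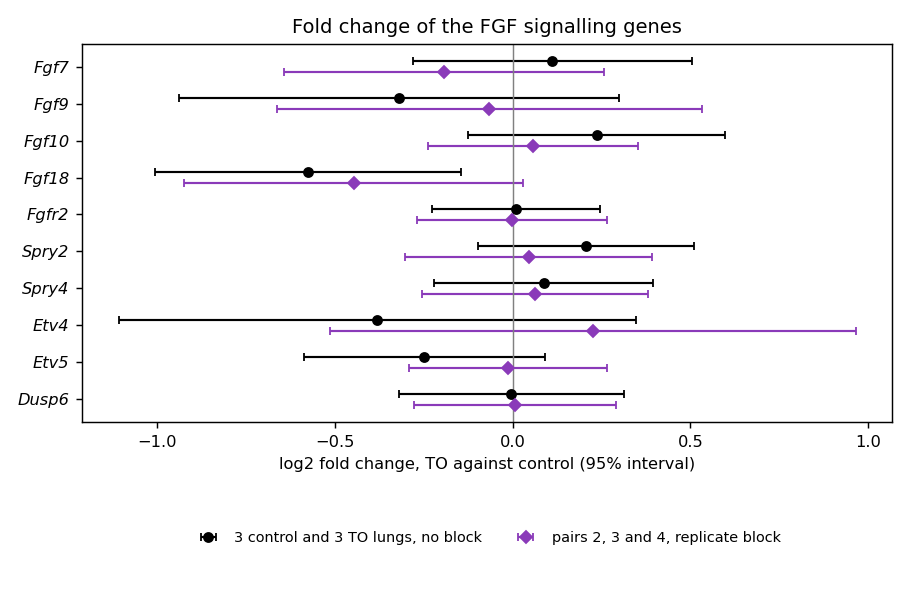
Log2 fold change of TO against control with its 95% interval for the 10 genes, from 3 control and 3 TO lungs without a block (black circles) and from pairs 2, 3 and 4 with the replicate number as a block (purple diamonds). Only the unblocked interval of Fgf18 lies to one side of 0; Etv4 has the widest intervals, and Fgf7, Fgfr2, Etv4 and Dusp6 change sign between the 2 fits.

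Of the ERK-induced transcription factors, Etv5 (ENSMUSG00000013089.15, chr16:22381309-22439719, minus strand) and Etv4 (ENSMUSG00000017724.14, chr11:101769742-101785371, minus strand) act downstream of Fgfr2 in the tip epithelium, and Etv5 is also kept in alveolar type II cells. Etv5 was at 360, 362, 213 and 330 CPM in controls 1 to 4 and at 356, 235 and 294 CPM in TO 2, 3 and 4. TO 1 was at 169 CPM on 49 reads (exact Poisson 95% interval 125 to 224). The lungs numbered 3 were again the 2 lowest of the 7 deep libraries, and the groups overlapped. The log2 fold change was -0.25 (SE 0.15, 95% interval -0.59 to 0.09; edgeR adjusted p = 0.907) and -0.01 with the block in pairs 2, 3 and 4. Etv4 was at 6.66, 6.01, 1.51 and 5.98 CPM in controls 1 to 4 and at 6.90, 5.07, 2.85 and 6.33 CPM in TO 1 to 4, the first of the TO values on 2 reads. Control 3 and TO 3 lay below the others, a 4.401-fold range from control 3 to control 1 that was the widest of the members. Its log2 fold change was -0.38 (SE 0.32, 95% interval -1.11 to 0.35; edgeR adjusted p = 0.920) and turned to 0.23 with the block in the 3 pairs.

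The feedback inhibitors overlapped between groups, with intervals on both sides of 0. Spry2 (ENSMUSG00000022114.5, chr14:105891947-105896819, minus strand), a Sprouty protein of the epithelial tips that restrains Ras and ERK, was at 38.8, 49.8, 55.2 and 39.5 CPM in controls 1 to 4 and at 41.4, 48.3, 48.1 and 51.4 CPM in TO 1 to 4. Controls spread more widely than TO lungs did and enclosed them all. The log2 fold change was 0.21 (SE 0.13, 95% interval -0.10 to 0.51; edgeR adjusted p = 0.909). Spry4 (ENSMUSG00000024427.7, chr18:38586247-38601415, minus strand), a relative with the same action, was at 53.2, 48.9, 54.9 and 51.2 CPM in controls 1 to 4 and at 38.0, 55.7, 62.5 and 45.0 CPM in TO 1 to 4. Here the TO lungs enclosed the controls, with a log2 fold change of 0.09 (SE 0.14, 95% interval -0.22 to 0.40; edgeR adjusted p = 0.966). Dusp6 (ENSMUSG00000019960.8, chr10:99263231-99267489, plus strand), the phosphatase that switches ERK off, was at 109, 118, 105 and 95.7 CPM in controls 1 to 4 and at 72.5, 127, 94.5 and 99.9 CPM in TO 1 to 4. Groups overlapped through the full range of the controls. Its log2 fold change was -0.004 (SE 0.14, 95% interval -0.32 to 0.31; edgeR adjusted p = 0.998). An adjusted p of this size does not show that the levels were equal; for Dusp6 the interval leaves room for 0.801 to 1.24 times the control level.

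Lungs that carry the number 3 stood apart from the rest for 4 of the 10 genes, in both groups alike. Control 3 and TO 3 were the 2 lowest of the 7 deep libraries for Fgf9, Etv4 and Etv5, as they were for 13.8% of all genes tested. They were the 2 highest for Fgf10, as for 11.6% of all genes. For Etv5 these lungs stood at 213 and 235 CPM and the other 5 at 294 to 362 CPM. The 6 proliferation markers moved alongside, at 385 and 334 CPM in control 3 and TO 3 against 711 to 1436 CPM in the other deep libraries. The 7 interferon-response markers ran the other way, at 208 and 372 CPM in these 2 lungs against 36.05 to 104 CPM. The part of either list in the levels of Fgf9, Fgf10, Etv4 and Etv5 was not tested, and the labels do not say what the replicate numbers mark.

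**Figure D4:**
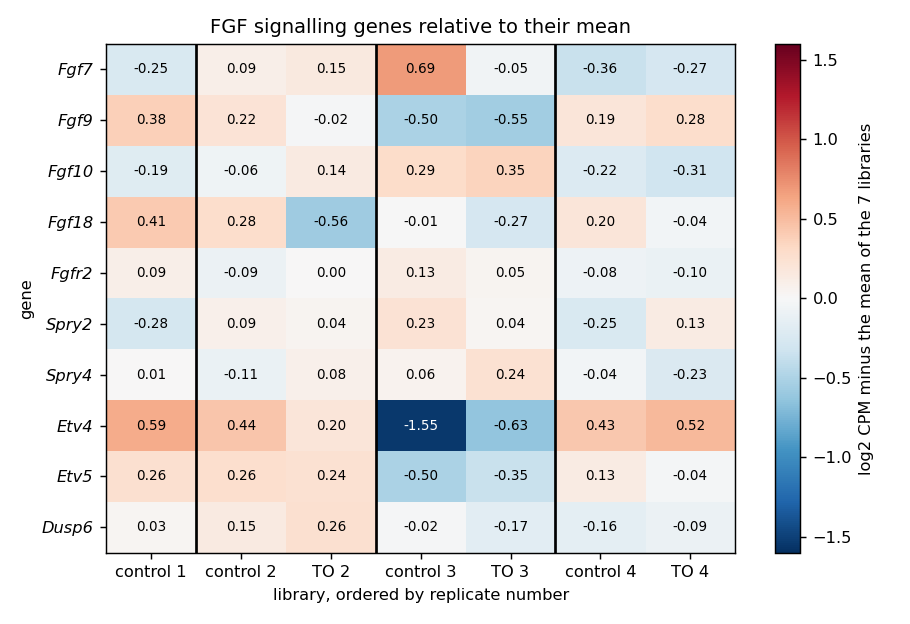
Log2 CPM of each gene minus its mean over the 7 libraries of full depth, with libraries ordered by replicate number and a line between numbers; red is above and blue below the mean. In the columns of control 3 and TO 3, Etv4 (-1.55 and -0.63), Etv5 (-0.50 and -0.35) and Fgf9 (-0.50 and -0.55) are low and Fgf10 (0.29 and 0.35) is high.

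The promoters of these genes differ in base composition. RefSeq (GRCm38.p6) gave 250 bases upstream of the start for 8 of the 10 genes, in 9 windows. Those of Fgf18, the gene with the lowest p, of Fgf9, which was low in lungs 3, and of Dusp6, an ERK target for which they were not the lowest pair, are printed because the results above turn on these genes. Capitals mark AGGAAG on either strand, a short sequence that ETS factors such as Etv4 and Etv5 can bind. The windows are chr11:33147401-33147650 (minus strand) for Fgf18, chr14:58072436-58072685 (plus) for Fgf9 and chr10:99262981-99263230 (plus) for Dusp6, each written 5′ to 3′ on the gene's strand. The RefSeq starts of Fgf9, Fgf10, Fgfr2 and Etv5 lie inside the genes as GENCODE annotates them. For Fgfr2 the RefSeq window, chr7:130266809-130267058, is far from the upstream end of the GENCODE span at 133123350.
Fgf18: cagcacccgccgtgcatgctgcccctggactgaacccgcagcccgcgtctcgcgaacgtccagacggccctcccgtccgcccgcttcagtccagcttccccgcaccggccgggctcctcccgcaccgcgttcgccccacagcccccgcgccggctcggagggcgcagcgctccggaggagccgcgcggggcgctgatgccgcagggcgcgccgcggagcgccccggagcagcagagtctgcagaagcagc
Fgf9: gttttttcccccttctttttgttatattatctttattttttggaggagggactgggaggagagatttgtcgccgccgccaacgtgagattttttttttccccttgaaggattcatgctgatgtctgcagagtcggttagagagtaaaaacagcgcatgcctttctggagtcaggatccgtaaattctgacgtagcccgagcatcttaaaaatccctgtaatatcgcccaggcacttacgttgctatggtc
Dusp6: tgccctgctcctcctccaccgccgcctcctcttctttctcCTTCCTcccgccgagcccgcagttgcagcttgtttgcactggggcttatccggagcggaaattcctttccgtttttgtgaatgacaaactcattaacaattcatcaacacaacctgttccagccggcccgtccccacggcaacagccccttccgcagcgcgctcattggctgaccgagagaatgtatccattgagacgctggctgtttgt
The window of Fgf18 held 77.2% G and C, that of Dusp6 56.4% and that of Fgf9 44.8%. AGGAAG was found in 2 of the 9 windows, those of Fgfr2 and Dusp6, and in 29.5% of 32851 mouse windows of this length. For Fgfr2, and for the Etv5 window at chr16:22438369-22438618, the bases checked just after the RefSeq start were not found in a GENCODE transcript of the gene. Another ETS motif, CCGGAA on either strand, which shares its GGAA core with the first, was found in 0 of the 9 windows and in 12.03% of all. Neither match nor absence says whether a factor was bound there.

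Beyond the 10 genes, the rest of the pathway was read from 6 lists with 98 genes, of which 97 were matched (Spry3 was not) and 88 were tested. None was called by edgeR in the 6 lungs, and 5 of 88 had an unadjusted p under 0.05, against 5.14% of all genes; the median log2 fold change of the 88 was 0.03. With the block in pairs 2, 3 and 4 none of these 5 kept an unadjusted p under 0.05, and 3 others had one, Fgf11, Fgf13 and Flrt2, of which Flrt2, a membrane protein that binds FGF receptors, had a log2 fold change of 0.41 (SE 0.16). Of 18 other FGF ligands and homologous factors, 10 were tested. The most abundant in reads were Fgf1, at 79.6 to 119 CPM in the deep libraries, and Fgf2, at 38.0 CPM in control 3 and 17.03 to 19.9 CPM in the other 6. Fgf3, Fgf4, Fgf15 and Fgf20 had no read in any library. Among 11 other receptors, co-receptors and binding proteins, the mean of Fgfr3 was 240 ± 9.16 CPM over the controls and 210 ± 18.8 CPM over the TO lungs (SD, n = 3 each). Its log2 fold change was -0.20 (SE 0.10), with an unadjusted edgeR p of 0.0913 and an adjusted p of 0.907. Its groups were apart, as were those of 10.9% of all genes tested and of other genes in these lists, not all named here. Fgfr1 was at 97.5 ± 16.0 and 107 ± 10.2 CPM (SD, n = 3 each). Fgfr1 did not separate the groups.

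Heparan sulfate chains hold FGFs at their receptors, and of 17 genes that make, carry or trim them Sulf2 alone had an unadjusted p under 0.05. Sulf2, which removes sulfate from the chains, was at 58.8, 60.9, 78.7 and 70.3 CPM in controls 1 to 4 and at 104, 72.3, 74.7 and 89.8 CPM in TO 1 to 4. Its log2 fold change was 0.32 (SE 0.13; edgeR adjusted p = 0.907), and 0.18 (SE 0.14) with the block in pairs 2, 3 and 4. Hspg2, the core protein perlecan, and Ndst1, an enzyme of chain sulfation, had log2 fold changes of -0.23 (SE 0.18) and -0.03 (SE 0.12). None of 21 genes of the Ras and ERK cascade had an unadjusted p under 0.05, and their log2 fold changes ran from -0.19 to 0.22, with Plcg1, a phospholipase that binds the activated receptor, at 0.04 (SE 0.11). In the list of other feedback and ERK-responsive genes, 12 of 14 were tested and Dusp4 had an unadjusted p under 0.05. This phosphatase of nuclear ERK was at 11.3, 8.35, 16.4 and 10.8 CPM in controls 1 to 4 and at 6.90, 21.7, 16.8 and 11.8 CPM in TO 1 to 4, with a log2 fold change of 0.72 (SE 0.25; edgeR adjusted p = 0.907), and of 0.51 (SE 0.28) with the block, while Spred1 was at -0.04 (SE 0.11) and Ccnd1 at -0.06 (SE 0.17). Of the pathway's inhibitors, then, Dusp4 had the largest log2 fold change and Dusp6 and Spry4 ones near 0.

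**Figure D5:**
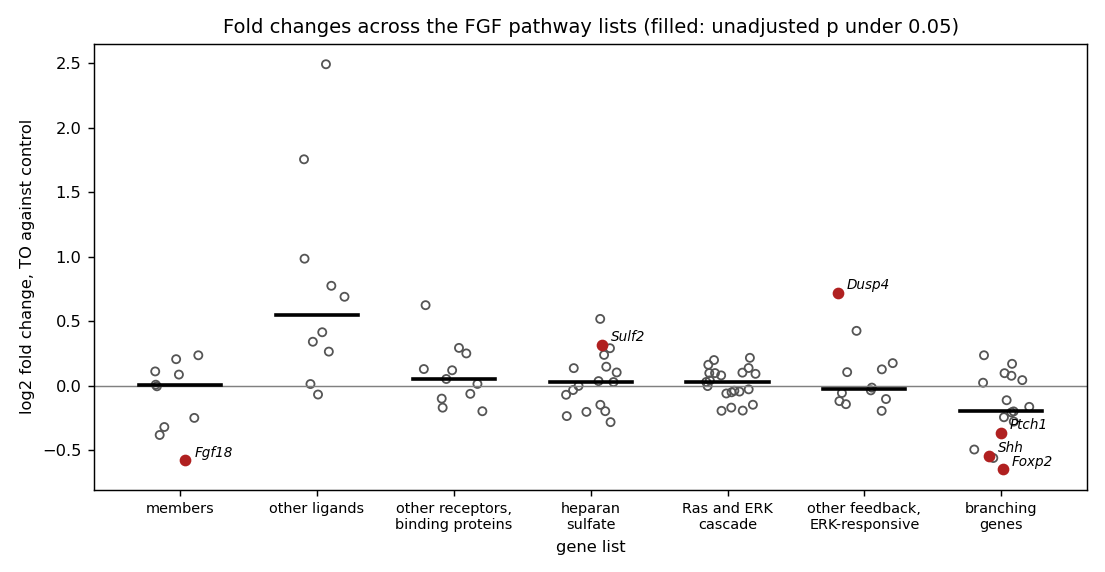
Log2 fold change of TO against control for the tested genes of each list, with the line at the median and filled points for an unadjusted p under 0.05. Named points are Fgf18, Sulf2, Dusp4, Shh, Ptch1 and Foxp2; the median of the 17 branching genes, -0.20, is the lowest here and is -0.02 with the block in pairs 2, 3 and 4, and that of the other ligands, 0.55, includes genes under 1 CPM.

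Among 17 genes that act beside FGFs in branching, 3 had an unadjusted edgeR p under 0.05, against 5.14% of all genes tested. All 3 had a negative log2 fold change, as did 452 of the 1123 genes under 0.05 among all tested. The median log2 fold change of the 17 was -0.20 against -0.0045 for all genes tested. With the replicate block in pairs 2, 3 and 4, where control 3 is set against TO 3, the median of the 17 was -0.02. Shh, the epithelial signal that limits Fgf10 in the mesenchyme, was at 91.8, 113, 56.3 and 71.8 CPM in controls 1 to 4 and at 34.5, 70.9, 59.7 and 59.4 CPM in TO 1 to 4. Controls 1, 2 and 4 lay above the TO lungs and control 3 among them, with a log2 fold change of -0.54 (SE 0.16; edgeR adjusted p = 0.907). Ptch1, the receptor and a target of Shh, had a log2 fold change of -0.37 (SE 0.16). Foxp2, a transcription factor of the distal epithelium, had one of -0.65 (SE 0.23). The groups overlapped for both genes. Ptch1 was at 268 CPM in TO 4 and 257 CPM in control 2, and Foxp2 at 166 CPM in TO 4 and 164 CPM in control 4. With the block in pairs 2, 3 and 4, Shh was at -0.29 (SE 0.16), Ptch1 at -0.22 (SE 0.12) and Foxp2 at -0.30 (SE 0.19), and none of the 3 had an unadjusted p under 0.05. Without TO 4, Foxp2 was called, at -0.94 with an edgeR adjusted p of 0.0907. In that fit 144 of 20801 genes tested were called (0.692%), and 1 of the 84 tested genes of the 6 lists. Nkx2-1, the factor of lung epithelial identity, and Ctnnb1, which carries Wnt signals, were at -0.20 (SE 0.16) and 0.02 (SE 0.11) without the block. The sum of the 4 epithelial markers Epcam, Cdh1, Krt8 and Krt18 was lower in the same TO lungs, as given above for Fgf18. Other epithelial lists did not follow: 7 of 7 alveolar type II, 4 of 4 airway and 2 of 6 alveolar type I markers were higher in TO. The sums of these other lists overlapped between groups. The part of any of these lists in the Shh and Foxp2 values was not tested.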

How the data were processed

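Per the labels and the study's methods, the authors barcoded RNA of entire fetal mouse lungs with NexteraXT, sequenced it as paired reads and aligned these to GRCm38 (mm10) with STAR, whose version is not given in the sources used here. The authors deposited unnormalized counts, in read pairs for each gene. The column for both strands together was used, since each strand held about the same share of pairs. Of 55385 gene IDs, 55144 matched GENCODE M21 without version, which gave symbols, positions and exon lengths. Promoter windows are RefSeq's, GRCm38.p6.

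Tests covered the 21859 genes that reached 5 reads in at least 3 of the 6 libraries and were run in R 4.3.3 by edgeR 4.0.16 (quasi-likelihood, TMM, Benjamini-Hochberg, adjusted p under 0.1), with DESeq2 1.42.0, limma 3.58.1, other libraries, filters, scalings, strands and blocks as alternatives. CPM used TMM factors of all 8 libraries. The fits were tested on simulated counts. The members, lists and markers were chosen with earlier results of these data known. Of each list beyond the members, the 2 genes of highest mean CPM and any with an unadjusted p under 0.05 were named, except 1 that is not reported here; Flrt2, genes with no reads, the genes that share exons and Ly6g were named after their values were seen.

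Deviations from the group mean correlated at 0.207, 0.340, 0.489 and 0.339 in the same-numbered pairs 1 to 4 (9335 genes), each above 0.1, and so the numbers were taken to pair the lungs; their specimen names also share digits. Of the differently numbered pairs, control 4 with TO 1 (0.332) and control 1 with TO 4 (0.147) were also above 0.1. Nothing says that lungs came from separate litters, so p-values measure the spread between these lungs. Reads carried no molecular identifiers, and intervals and floors cover counting error only.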

Additional observations from a re-analysis of the deposited data

Results flagged for a closer look

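Etv4 in control 3 was at 1.51 CPM, far from the other controls, of which the nearest was at 5.98 CPM. The gap was 0.867 of the range of the 4 controls, above the critical value of Dixon's test for 4 values at the 95% level, and chance flags about 1 group in 20. TO 3, of the same replicate number, was at 2.85 CPM.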

How the results depend on the processing

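No member passed an adjusted p of 0.1 in any of the alternatives run. Of the other pathway genes only Foxp2 did, without TO 4, where 0.692% of all genes tested passed. The number of members with an unadjusted p under 0.05, 1 in the comparison of 6 lungs, was 0 with all 8 libraries, 0 with the replicate block in all 8 libraries and 0 with the block in pairs 2, 3 and 4, and ran from 0 to 2 when a lung was left out (0 without control 1; 2 without control 2, when Spry2 was added, and 2 without TO 4, when Fgf10 was added; without TO 2, Etv5 took the place of Fgf18), where the share of all genes ran from 2.76% without control 1 to 10.7% without TO 4. Members whose groups did not overlap, 1, were 0 with all 8 libraries, 2 in counts of the second strand and 1 to 5 when a lung was left out, 5 without TO 4, where the share of all genes was 10.8% in second-strand counts and 18.51% to 28.2% with a lung left out, highest without TO 4. Other pathway genes with an unadjusted p under 0.05, 5, were 1 with all 8 libraries, 0 without TO 1 and with control 3 added, 8 when every gene with a read was tested, 8 by limma-voom, 9 with the replicate block in the 6 lungs, 7 with it in all 8 and 3 with it in pairs 2, 3 and 4 (0 of these 3 among the 5), and ran from 2 to 11 when a lung was left out, 11 without TO 4. Of all genes tested, 5.14% had such a p in the 6 lungs and 2.35% with all 8 libraries. The share was 6.02% when every gene with a read was tested, 6.23% by limma-voom and 10.7% without TO 4. With the block it was 5.92% in the 6 lungs, 4.4% in all 8 and 3.08% in pairs 2, 3 and 4. The lists held 88 tested genes in the 6 lungs, 93 when every gene with a read was tested and 84 without TO 4. The block changed no other call of a member. Per exon length, basic transcripts moved Fgfr2 to 82.4 and Dusp6 to 38.3 CPM per kilobase. The cause of these changes was not tested.

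Signs turned for Fgf7, Fgf10, Fgfr2, Spry4, Etv4 and Dusp6. With all 8 libraries, log2 fold changes were -0.28 for Fgf7 and -0.16 for Fgfr2. In 7 libraries, without TO 1, they were -0.15 for Fgf7, -0.0313 for Fgfr2 and 0.00406 for Dusp6. With the replicate block in all 8 libraries they were -0.31 for Fgf7, -0.0403 for Fgf10, -0.18 for Fgfr2, -0.0037 for Spry4 and 0.21 for Etv4; with the block in pairs 2, 3 and 4, -0.19 for Fgf7, -0.0018 for Fgfr2, 0.23 for Etv4 and 0.00545 for Dusp6; and with the block in the 6 lungs, 0.0889 for Dusp6. First-strand counts gave -0.0457 for Fgf7 and -0.015 for Fgfr2, and second-strand counts 0.0638 for Dusp6. Dusp6 was also at 0.00482 with 5 reads asked in every library, at 0.00796 with DESeq2's size factors and at 0.00803 by DESeq2. When a lung was left out, Fgfr2 ran from -0.0208 to 0.075, Spry4 from -0.0103 to 0.21 and Dusp6 from -0.14 to 0.0915. Fgf9, Fgf18, Spry2 and Etv5 kept their sign in all alternatives run.

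With 3 lungs a group and TO 1 left out, the intervals run from 0.916 to 1.51 times control for Fgf10 and from 0.464 to 1.27 times for Etv4. Values of TO 1, the shallow library, rest on 0 to 73 reads a member. For Fgf10 the log2 interval with all 8 libraries reached lower, to -0.46.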

Other observations

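Outside the 10 genes, some FGF homologous factors, relatives of FGFs that act inside the cell, ranged widely between lungs. Fgf11 and Fgf13 did so in both groups, and Fgf12 among the controls. Fgf11 reached 38.3 and 28.8 CPM in control 3 and TO 3, and was at 6.97 to 17.5 CPM in the other deep libraries. Fgf12 was at 3.29, 2.01, 16.6 and 12.6 CPM in controls 1 to 4 and at 9.99, 11.3 and 9.54 CPM in TO 2, 3 and 4. Fgf13 was at 2.40 to 14.1 CPM in the deep libraries and at 41.4 CPM in TO 1, where 1 read was 3.45 CPM and the value rests on few reads. In TO 1 the 6 skeletal muscle markers summed to 2557 CPM against 14.9 to 287 CPM in the others. Their part in the Fgf13 value was not tested. Within pairs 2, 3 and 4 with the replicate block, Fgf11 had a log2 fold change of -0.46 (SE 0.19) and Fgf13 one of 0.72 (SE 0.32), with edgeR adjusted p = 0.99995 for both. These genes were chosen after their values were seen.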
